A study of Mus musculus with 2 samples.

Results

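The vascular endothelial growth factor (VEGF) family was followed through the cells of the neonatal mouse pituitary as 10 genes out of the 31055 features of the count tables. They are the ligands *Vegfa*, *Vegfb*, *Vegfc*, *Vegfd* and *Pgf*, the receptors *Kdr* and *Flt1*, the co-receptors *Nrp1* and *Nrp2*, and *Angpt1*, a ligand of the angiopoietin family. Members were taken by gene symbol, and each symbol matched 1 feature in both tables. All 10 had UMIs (unique molecular identifiers, 1 for each captured transcript) in both libraries.

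The data are single-cell RNA-seq counts of pituitary cells sorted for GFP from *Sox9*iresGFP/+ mice at postnatal day 3, in which GFP is made from the *Sox9* locus and both libraries carry the same reporter allele. The gate reads GFP protein and not SOX9 itself. Cells other than stem cells (SCs), with less *Sox9* RNA than those, were among the cells sorted, and the reason was not tested. There was 1 male and 1 female library, each from 3 pooled pituitaries. With 1 library per sex no test was possible, and every interval below holds counting error only.

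Cell classes were set by raw marker UMIs. Stem cells had at least 2 UMIs of *Sox2*, at least 1 of *Sox9* and none of *Lef1*. Differentiating cells had at least 2 of *Lef1*, a WNT pathway factor. Gonadotrophs had at least 5 of *Cga*, the common glycoprotein hormone subunit, and 2 or more of *Gnrhr*, *Lhb*, *Fshb* and *Nr5a1* together. Pou1f1-lineage cells, the branch of somatotrophs, lactotrophs and thyrotrophs, had at least 2 of *Pou1f1*. Melanotrophs had at least 20 of *Pomc* and 2 or more of *Pax7*, *Oacyl* and *Pcsk2* together. Mesenchymal cells had at least 10 of *Dcn*, *Col1a1*, *Col1a2*, *Col3a1* and *Lum* together, no *Epcam* and at most 1 *Sox2* UMI.

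The male library gave 1863 stem cells, 912 differentiating cells, 352 gonadotrophs, 786 Pou1f1-lineage cells, 296 melanotrophs and 520 mesenchymal cells among 10410 cells kept. The female library gave 1874, 606, 25, 282, 118 and 293 cells in the same order among 5711 cells kept. Cells that met 2 or more endocrine or mesenchymal rules (29 male and 5 female) were left out of the classes, and 5652 male and 2508 female cells met no rule. The female gonadotrophs, with 25 cells, are the class with the widest intervals. For mesenchymal against stem cells, these genes outside the rules followed the names. *Tcf21*, a mesenchymal transcription factor, was at 719 and 565 CPM in male and female mesenchymal cells and at 5.44 and 4.32 CPM in stem cells. *Pitx1*, a factor of the pituitary epithelium, was at 4.16 and 0.404 CPM in mesenchymal and at 188 and 190.3 CPM in stem cells.

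Libraries held 105883748 male and 62830305 female UMIs in the cells kept, with medians of 8902.5 and 9789 UMIs per cell. Of the male cells 3627 had fewer than 5000 UMIs, against 287 female cells, and 19 barcodes occurred in both libraries. Hormone RNA was found outside the hormone cells, and more of it in the male library: *Cga* was at 94.6 CPM in male and 25.2 CPM in female stem cells, and *Pomc* at 347 and 72.7 CPM. A level below is the UMIs of a gene summed over the cells of a class, per 1000000 UMIs of those cells (CPM). A gene is called past 2-fold when its levels in 2 classes differ at least 2-fold and their exact Poisson 95% intervals do not overlap, in the same direction in both libraries. All 5 comparisons with stem cells use the same stem cells.

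VEGF ligands are secreted dimers that act on receptor tyrosine kinases of endothelial cells. VEGFA, VEGFB and placental growth factor (PGF) bind FLT1, VEGFA binds KDR, the main receptor for vessel growth, and VEGFC and VEGFD are known above all as ligands of the lymphatic receptor FLT4. Neuropilins are co-receptors for VEGF ligands and for class 3 semaphorins, and angiopoietin 1 steadies vessels through the receptor TEK. The anterior pituitary is known for its dense bed of fenestrated capillaries, into which the endocrine cells release their hormones.

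The bases before the start sites of *Vegfd* and *Vegfb* are shown because, of the ligands, *Vegfd* was the most concentrated in 1 class and *Vegfb* was found at a high level in every class. Sequences are from RefSeq on GRCm38.p6 (mm10), 5′ to 3′ on the gene's strand, with CpG dinucleotides in capitals and with bases after the GENCODE start left out, which leaves 106 bases at *Vegfd*. The *Vegfd* stretch is chrX:164373272-164373377 (plus strand) and the *Vegfb* stretch chr19:6987652-6987901 (minus strand).
Vegfd: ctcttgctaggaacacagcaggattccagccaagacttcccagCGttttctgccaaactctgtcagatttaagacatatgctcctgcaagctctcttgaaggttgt
Vegfb: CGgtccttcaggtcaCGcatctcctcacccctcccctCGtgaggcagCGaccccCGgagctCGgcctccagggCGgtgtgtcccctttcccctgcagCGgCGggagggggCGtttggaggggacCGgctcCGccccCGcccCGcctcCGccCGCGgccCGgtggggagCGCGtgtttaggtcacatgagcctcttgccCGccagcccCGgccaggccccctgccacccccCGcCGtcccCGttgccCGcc

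The 250 bases before the RefSeq start hold 2 CpGs and 42.4% G or C at *Vegfd*, against 26 CpGs and 76.4% at *Vegfb*. The median of 32851 mouse promoters of this length is 6 CpGs, and 81.2% of them have at least as many as *Vegfd*. Of the members, 9 of 10 matched a promoter (*Angpt1* did not). At the other members the counts run from 7 CpGs at 1 of the 2 *Vegfa* starts and 1 of the 2 *Pgf* starts to 32 at *Nrp2*. The letters CAAGGTCA, bound by the gonadotroph factor NR5A1, were searched on both strands and occur in 1.33% of all these promoters and in none of the members. The letters AGATAA, bound by GATA factors, occur once at *Vegfd*, in the bases left out above, and once at 1 *Vegfa* start, and in 9.99% of all promoters. Also searched were ACGTG (HIF factors), CTTTGAT (TCF/LEF factors) and CAGATG (an E-box). Among the members they occur at 1 *Vegfa* start, at *Nrp2* and at *Kdr* in that order. Over all promoters their shares are 16.6%, 3.21% and 14.4%.

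**Figure D1:**
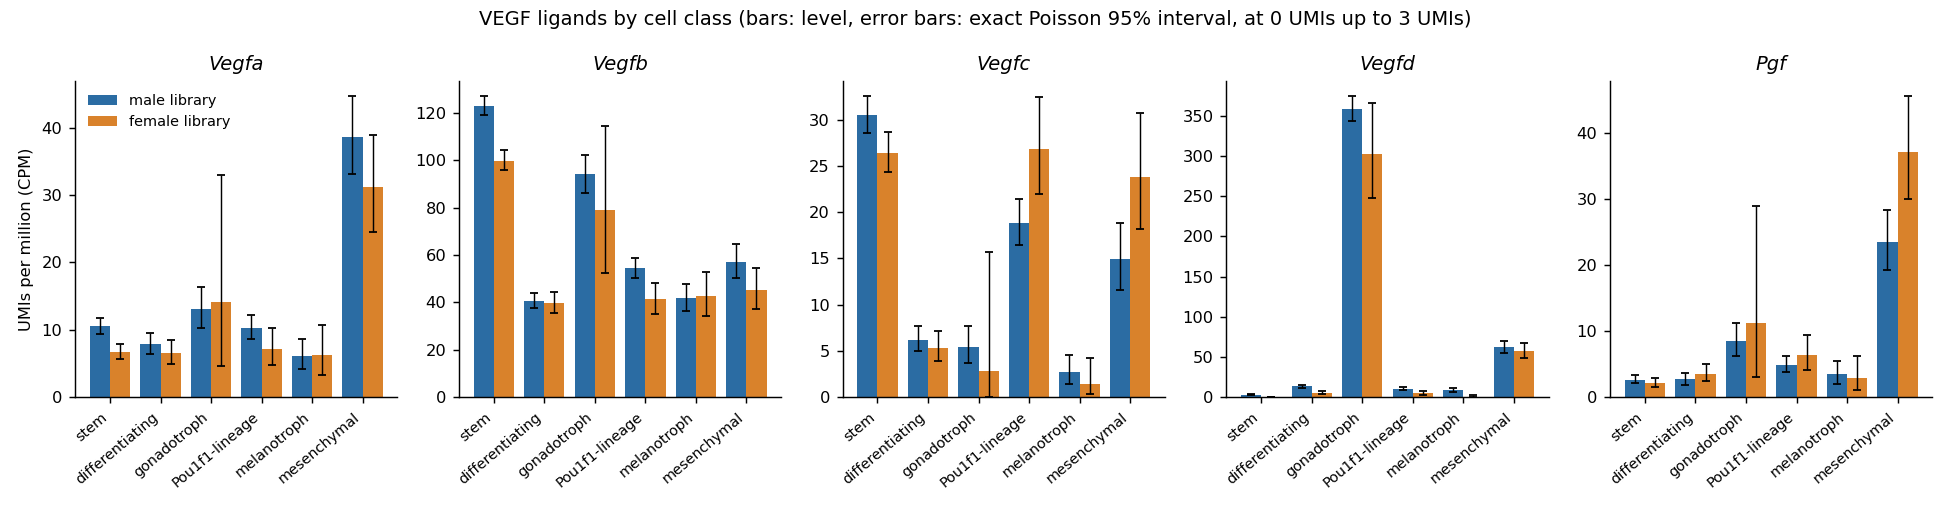
Level of each VEGF ligand (y axis, CPM, each panel on its own scale) in the 6 classes (x axis) of the male (blue) and female (orange) library. Bars are levels of 1 library and error bars exact Poisson 95% intervals. *Vegfd* stands highest in gonadotrophs (359 and 302 CPM), *Vegfb* in stem cells (123 and 99.9 CPM), and *Vegfa* and *Pgf* in mesenchymal cells.

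The ligand with the sharpest class pattern was *Vegfd* (ENSMUSG00000031380, mm10 chromosome X from 164373378 to 164402650, plus strand). Gonadotrophs held it at 359 CPM (343 to 375, 2065 UMIs) in the male library and 302 CPM (248 to 365, 107 UMIs) in the female library. Mesenchymal cells came second, with 62.6 CPM (55.6 to 70.3) and 57.4 CPM (48.3 to 67.6). Both libraries put the classes in the same order, gonadotroph, mesenchymal, differentiating, Pou1f1-lineage, melanotroph and stem. Differentiating cells had 13.4 and 5.66 CPM, Pou1f1-lineage cells 10.1 and 5.07 CPM, melanotrophs 8.66 and 0.482 CPM, and stem cells 2.82 CPM (2.25 to 3.50) and 0.459 CPM (0.220 to 0.844). Gonadotrophs and mesenchymal cells thus stood apart from all other classes in both libraries. The gonadotroph level was 5.73-fold the mesenchymal level in the male library (limits 4.88 to 6.74) and 5.27-fold in the female library (3.66 to 7.56). Here and below, the limits of a ratio come from the far ends of both intervals and are wider than 95% limits. In the order of the lower classes, differentiating and Pou1f1-lineage cells have overlapping intervals in both libraries, as do Pou1f1-lineage cells and melanotrophs in the male library and melanotrophs and stem cells in the female library.

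Most gonadotrophs carried the transcript. The median cell had 6 *Vegfd* UMIs in male and 4 in female cells, and 37 of 352 male and 6 of 25 female gonadotrophs had none. After each cell was thinned to 5000 UMIs, 254 of 322 male gonadotrophs (78.9%) and 16 of 24 female gonadotrophs (66.7%) had a *Vegfd* UMI. At the same depth this was so in 14 of 1775 male (0.789%) and 1 of 1844 female stem cells (0.0542%), the class with the least *Vegfd*. Among mesenchymal cells the share was 21.7% in male and 23.9% in female cells, so the transcript was seen in a minority of mesenchymal cells at this depth. Before thinning the shares were 89.5% and 76.0% of gonadotrophs, 31.7% and 33.4% of mesenchymal cells and 1.88% and 0.320% of stem cells, and thinning left out 30 and 1 gonadotrophs, 69 and 29 mesenchymal cells and 88 and 30 stem cells with fewer UMIs. Median depths were 14664.5 and 14341 UMIs for gonadotrophs, 7897 and 7567 for mesenchymal cells and 11779 and 9915 for stem cells.

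*Vegfd* went up with *Cga* cell by cell, also outside the gonadotroph rule. In cells with no *Pou1f1* UMI, the male level was 2.54 CPM where *Cga* was at 0 UMIs, 4.78 CPM at 1 to 4, 38.6 CPM at 5 to 19, 83.7 CPM at 20 to 99 and 325 CPM (314 to 337) at 100 or more. The female levels in the same bins were 0.692, 4.58, 19.6, 57.5 and 286 CPM (250 to 326). In both libraries each step up in *Cga* was a step up in *Vegfd*. The 559 male and 48 female cells of the highest bin included cells that the gonadotroph rule leaves without a class.

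*Cga* is also made by thyrotrophs, and in the highest *Cga* bin *Vegfd* was lower in *Pou1f1* cells. That bin has no upper end, so *Cga* is not matched within it. In the lower bins the intervals overlapped throughout in the female library. In the male library they overlapped under 5 *Cga* UMIs, while *Pou1f1* cells were lower at 5 to 19 (14.3 CPM) and 20 to 99 (26.9 CPM). With at least 2 *Pou1f1* UMIs and 100 or more *Cga* UMIs, *Vegfd* was at 111 CPM (91.7 to 132) in 38 male cells and at 22.3 CPM (8.20 to 48.6) in 11 female cells, below the cells without *Pou1f1* in both libraries. The *Cga* bins leave out the mesenchymal class alone, so *Pou1f1* cells that also met another rule are among them. The 29 male and 5 female cells that met 2 or more rules held 105 and 6 *Vegfd* UMIs, against 126 and 20 in all Pou1f1-lineage cells. In Pou1f1-lineage cells with at least 5 UMIs of *Tshb*, the thyrotroph hormone subunit, *Vegfd* was at 5.29 CPM in 11 male cells (2 UMIs) and at 4.22 CPM in 9 female cells (1 UMI).

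**Figure D2:**
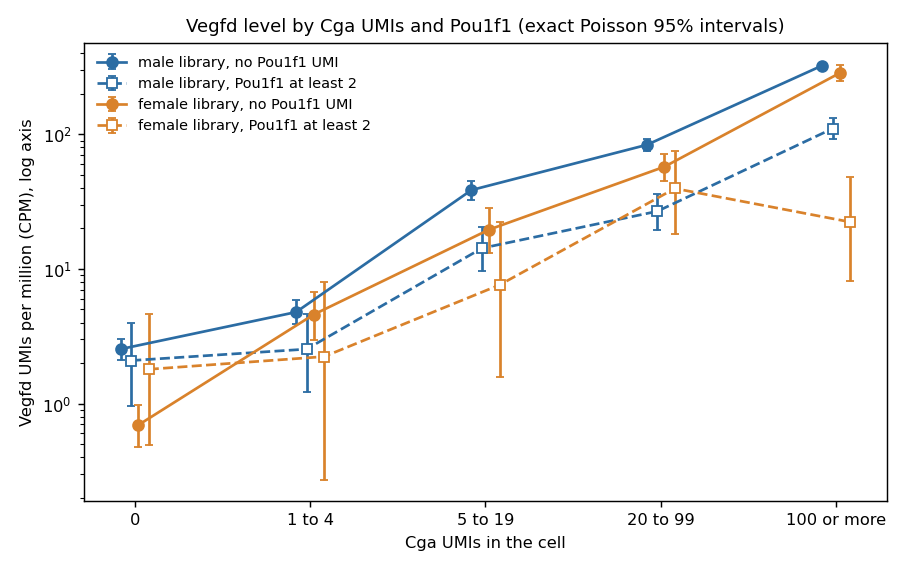
*Vegfd* level (y axis, CPM, log axis) in cells grouped by their *Cga* UMIs (x axis), for cells without a *Pou1f1* UMI (filled circles) and with at least 2 (open squares), in the male (blue) and female (orange) library. Error bars are exact Poisson 95% intervals. Without *Pou1f1* the level climbs from 2.54 to 325 CPM in male and from 0.692 to 286 CPM in female cells. Mesenchymal cells are left out, and cells that met 2 or more class rules are included.

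Cells on the way to the hormone state were examined by splitting the differentiating cells, a split chosen after the values were seen. Differentiating cells with at least 5 *Cga* UMIs had 38.5 CPM of *Vegfd* (32.8 to 44.9, 245 cells) in male and 22.4 CPM (15.4 to 31.5, 94 cells) in female cells. Those with fewer had 2.81 CPM (1.87 to 4.07) and 2.14 CPM (1.20 to 3.53). Cells with at least 5 *Cga* UMIs thus held most of the differentiating *Vegfd* UMIs, 161 of 189 in the male and 33 of 48 in the female library. Of the cells with no class, the 436 male and 79 female cells with at least 20 *Cga* UMIs were at 227 and 155 CPM, and they held 1252 of 1513 male and 181 of 226 female *Vegfd* UMIs found in cells with no class.

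Low *Vegfd* outside gonadotrophs was set against *Cga* in the same classes, since *Cga* RNA was found in all of them. Gonadotrophs had 21.7 *Vegfd* UMIs per 1000 *Cga* UMIs (20.6 to 22.8) in male and 13.8 (11.03 to 17.0) in female cells. Stem cells had 29.9 (22.9 to 38.4) and 18.2 (8.03 to 36.5), and melanotrophs 30.0 (20.8 to 42.3) and 6.13 (0.133 to 40.1). Differentiating cells had 16.4 (13.9 to 19.3) and 18.7 (13.3 to 25.8), and Pou1f1-lineage cells 8.23 (6.75 to 9.96) and 1.43 (0.859 to 2.25). The 11 male and 9 female *Tshb* cells held 5860 of 15308 and 11613 of 13986 Pou1f1-lineage *Cga* UMIs, with 2 and 1 *Vegfd* UMIs. Pou1f1-lineage cells with low hormone (under 50 *Gh*, 20 *Prl* and 5 *Tshb* UMIs) had 11.7 (9.23 to 14.7) and 12.4 (7.09 to 20.3). This was below the gonadotroph ratio in the male library and overlapped it in the female library. Picking cells for fewer than 5 *Cga* UMIs by itself raises the ratio, so such cells cannot be set against the gonadotroph ratio. Differentiating cells picked in this way had 63.6 (38.5 to 101) and 63.3 (31.2 to 119), and cells with no class 48.7 (39.7 to 59.3) and 109.6 (67.4 to 173). Melanotrophs overlapped the gonadotroph ratio in both libraries and stem cells in the female library, with male stem cells just above it. The part of free RNA in their *Vegfd* was not tested. Mesenchymal cells had 2344 *Vegfd* UMIs per 1000 *Cga* UMIs in male and 5917 in female cells, above every other class.

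*Vegfb* (ENSMUSG00000024962, chromosome 19 from 6982473 to 6987651, minus strand), which is linked to tissue lipid handling and vessel survival more than to sprouting, was found in every class. Stem cells were highest, with 123 CPM (119 to 127) in male and 99.9 CPM (95.8 to 104) in female cells. Gonadotrophs followed with 94.2 CPM (86.4 to 102) and 79.1 CPM (52.6 to 114), and their interval overlaps that of stem cells in the female library. Mesenchymal cells had 57.2 and 45.3 CPM, Pou1f1-lineage cells 54.4 and 41.3 CPM, melanotrophs 41.7 and 42.9 CPM, and differentiating cells 40.8 and 39.7 CPM. *Vegfb* was thus lower outside stem cells and gonadotrophs, by 2.15- to 3.02-fold in male and 2.21- to 2.51-fold in female cells. At 5000 UMIs, 42.6% of male and 35.6% of female stem cells had a *Vegfb* UMI, against 15.8% and 17.2% of differentiating cells (before thinning, 71.6% and 58.8% against 39.8% and 36.6%). No class lacks *Vegfb*, so these shares have no background class to stand against.

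Within stem cells, *Vegfb* was higher in cycling cells, those with UMIs of at least 2 of 8 proliferation genes. Cycling cells had 140.4 CPM (135 to 146) in male and 126 CPM (119 to 133) in female cells, and the others 93.2 CPM (87.6 to 99.2) and 80.4 CPM (75.5 to 85.6). The ratio was 1.51 (1.36 to 1.67) and 1.56 (1.39 to 1.76), under the 2-fold of the call but with intervals apart in both libraries. Cycling cells were also deeper, with medians of 18728 and 13434 UMIs against 9500 and 8977. At 5000 UMIs per cell, 49.4% and 43.2% of the cycling cells had a *Vegfb* UMI, against 36.6% and 32.0% of the others (before thinning, 87.5% and 76.4% against 57.9% and 50.5%).

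*Vegfc* (ENSMUSG00000031520, chromosome 8 from 54077606 to 54187096, plus strand) was at 30.5 CPM (28.5 to 32.6) in male and 26.4 CPM (24.3 to 28.7) in female stem cells. Pou1f1-lineage cells had 18.8 CPM (16.5 to 21.4) and 26.9 CPM (22.0 to 32.5), and mesenchymal cells 14.9 and 23.8 CPM. These 3 classes do not separate in the female library, while stem cells were above both others in the male library. Differentiating cells had 6.23 and 5.31 CPM, gonadotrophs 5.39 CPM and 2.83 CPM (1 UMI), and melanotrophs 2.69 and 1.45 CPM (3 UMIs). From stem to differentiating cells the level was 4.90-fold lower (3.72 to 6.52) in male and 4.98-fold lower (3.43 to 7.41) in female cells.

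Within stem cells, *Vegfc* differed by less than 2-fold between Aldh1a2-rich and Ednrb-rich cells. Aldh1a2-rich stem cells (at least 2 UMIs of *Aldh1a2*, which makes retinoic acid, and none of *Ednrb*) had 38.0 CPM (34.6 to 41.7) in male and 36.8 CPM (32.2 to 41.9) in female cells. Ednrb-rich stem cells (at least 2 UMIs of the endothelin receptor *Ednrb*) had 25.3 CPM (22.3 to 28.7) and 21.6 CPM (18.8 to 24.7). The Aldh1a2-rich level was 1.501-fold (1.21 to 1.87) and 1.71-fold (1.31 to 2.23) the Ednrb-rich level, with intervals apart in both libraries. *Angpt1* leaned the same way, at 55.0 and 52.9 CPM in Aldh1a2-rich against 44.4 and 37.1 CPM in Ednrb-rich cells. None of the 9 members with enough UMIs was past 2-fold higher in Ednrb-rich cells, where the background over all genes was 0.669%, and none was past 2-fold lower, where it was 0.342%.

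**Figure D3:**
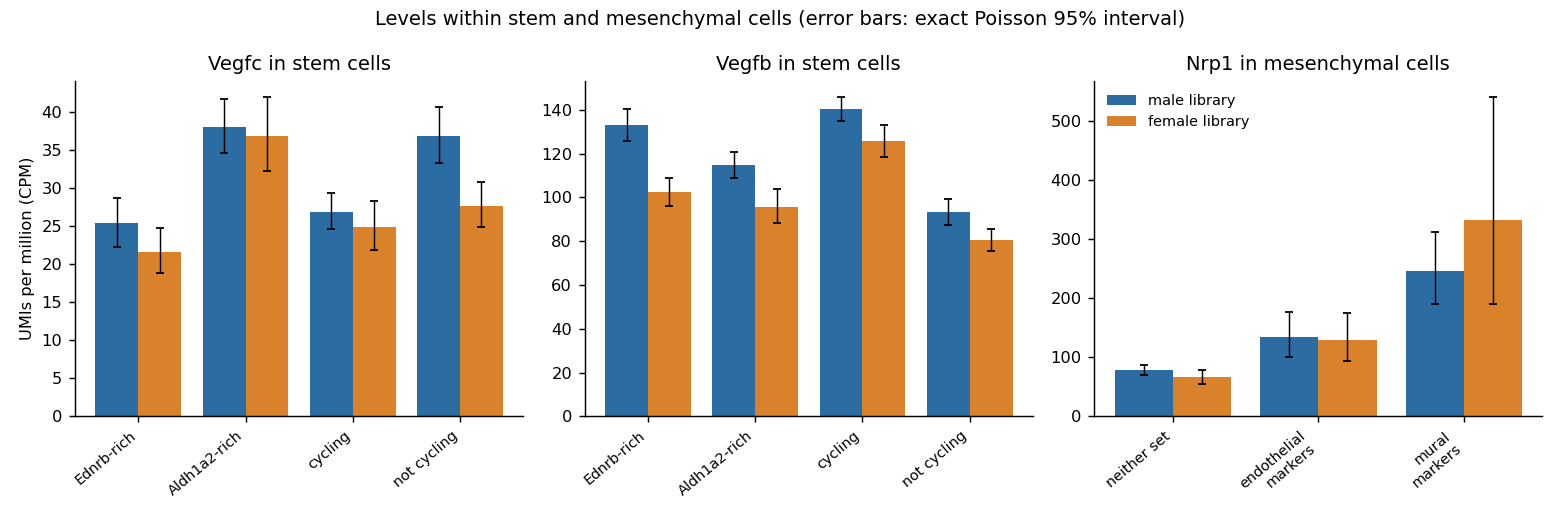
Levels (y axis, CPM) of *Vegfc* and *Vegfb* in 4 overlapping subsets of stem cells and of *Nrp1* in mesenchymal cells split by endothelial and mural markers (x axis), in the male (blue) and female (orange) library, with exact Poisson 95% intervals. *Vegfc* is higher in Aldh1a2-rich than in Ednrb-rich stem cells, *Vegfb* is higher in cycling than in other stem cells, and *Nrp1* is highest in the cells with mural markers (29 male and 5 female cells). The endothelial and mural sets share cells.

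*Vegfa* (ENSMUSG00000023951, chromosome 17 from 46016993 to 46032369, minus strand), the ligand most tied to new vessels and to low oxygen, was highest in mesenchymal cells. They had 38.5 CPM (33.1 to 44.7) in male and 31.1 CPM (24.6 to 38.9) in female cells. Gonadotrophs had 13.0 and 14.1 CPM, stem cells 10.5 and 6.70 CPM, Pou1f1-lineage cells 10.3 and 7.10 CPM, differentiating cells 7.85 and 6.49 CPM, and melanotrophs 6.16 and 6.27 CPM. The mesenchymal level was 3.67-fold (2.81 to 4.77) and 4.64-fold (3.12 to 6.87) that of stem cells, while the 5 epithelial classes lay between 6.16 and 13.0 CPM in male and between 6.27 and 14.1 CPM in female cells. At 5000 UMIs 16.2% of male and 13.3% of female mesenchymal cells had a *Vegfa* UMI, against 4.85% and 3.15% of stem cells (before thinning, 26.0% and 21.5% against 13.5% and 7.10%).

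*Pgf* (ENSMUSG00000004791, chromosome 12 from 85166635 to 85177790, minus strand), which binds FLT1, had the same highest class. Mesenchymal cells had 23.4 CPM (19.2 to 28.3) in male and 37.2 CPM (30.0 to 45.6) in female cells, and stem cells 2.65 and 2.16 CPM. Gonadotrophs came second with 8.51 CPM (6.30 to 11.3) and 11.3 CPM (3.08 to 28.9, 4 UMIs). The mesenchymal level was 8.83-fold (5.80 to 13.5) and 17.2-fold (10.4 to 28.8) that of stem cells. Cells with no class and at least 20 *Cga* UMIs had 10.7 and 9.39 CPM, close to gonadotrophs.

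**Figure D4:**
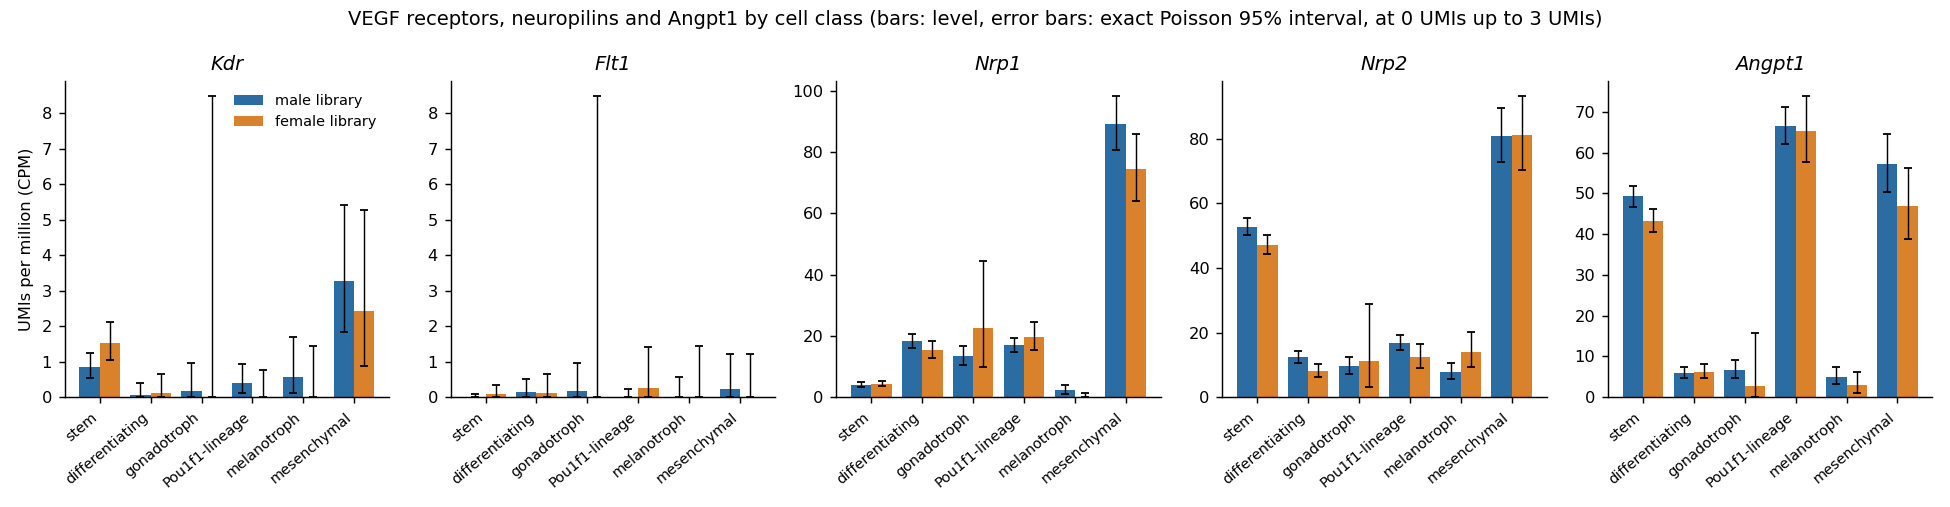
Level of each receptor and of *Angpt1* (y axis, CPM, each panel on its own scale) in the 6 classes (x axis) of the male (blue) and female (orange) library. Error bars are exact Poisson 95% intervals, or reach to 3 UMIs where none was found, as in the 25 female gonadotrophs for *Kdr* and *Flt1*. *Nrp1* and *Nrp2* are highest in mesenchymal cells, *Nrp2* is second in stem cells, and *Kdr* and *Flt1* are near 0 in all classes.

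The signalling receptors had few UMIs in the sorted cells. *Kdr* (ENSMUSG00000062960, chromosome 5 from 75932827 to 75978458, minus strand) had 98 UMIs in all male and 73 in all female cells kept, and *Flt1* (ENSMUSG00000029648, chromosome 5 from 147561604 to 147726011, minus strand) had 20 and 14. Of the *Kdr* UMIs, 44 male and 48 female ones lay in 40 and 42 cells with none of 8 endothelial markers, and 26 and 8 in cells with 1 or 2 of them. Among the 51 male and 30 female cells with at least 3 of 8 endothelial markers, 3 male cells held 28 *Kdr* UMIs and 2 female cells held 17, and 2 male and 2 female cells held 13 and 8 *Flt1* UMIs.

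*Kdr* was at 3.28 CPM (1.84 to 5.42) in male and 2.42 CPM (0.890 to 5.28) in female mesenchymal cells. Stem cells had 0.851 CPM (0.551 to 1.26, 25 UMIs) and 1.51 CPM (1.04 to 2.13, 33 UMIs), so mesenchymal cells lay above them in the male library, with overlap in the female library. Differentiating cells had 1 UMI in each library, Pou1f1-lineage cells 5 and 0, and melanotrophs 3 and 0. Within stem cells, 11 of the male and 23 of the female UMIs were in Ednrb-rich cells, with 7 and 1 in Aldh1a2-rich cells, a difference past the counting limits in the female library alone. At 5000 UMIs 0.451% of male and 0.705% of female stem cells had a *Kdr* UMI, and none of 893 and 603 differentiating cells did, which by a floor of 3 cells limits the share of cells with a UMI to 0.336% and 0.498%, with exact binomial upper bounds of 0.412% and 0.610% (before thinning, 1.18% and 1.49% of stem cells and 0.110% and 0.165% of differentiating cells). In gonadotrophs *Kdr* was at 1 male and 0 female UMIs, the latter with an upper limit of 8.48 CPM. *Flt1* had at most 2 UMIs in any of the 6 classes in either library, so no order of its levels can be given, and 16 of the 20 male and 10 of the 14 female UMIs were in cells with no class.

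*Nrp1* (ENSMUSG00000025810, chromosome 8 from 128358604 to 128503363, plus strand) was a mesenchymal transcript with a second, lower level in differentiating cells, gonadotrophs and Pou1f1-lineage cells. Mesenchymal cells had 89.1 CPM (80.7 to 98.2) in male and 74.3 CPM (64.0 to 85.9) in female cells. Differentiating cells had 18.3 and 15.5 CPM, Pou1f1-lineage cells 16.9 and 19.5 CPM, and gonadotrophs 13.4 CPM and 22.6 CPM (8 UMIs), none of which separates from the others in both libraries. Stem cells had 4.05 CPM (3.35 to 4.85) and 4.36 CPM (3.53 to 5.33), and melanotrophs 2.31 CPM (12 UMIs) and 0 UMIs, the latter with an upper limit of 1.45 CPM. The melanotroph and stem levels were the lowest of the 6 classes in both libraries. In the differentiating cells, *Nrp1* was at 31.5 and 26.5 CPM where *Cga* had at least 5 UMIs and at 12.8 and 13.1 CPM where it had fewer, so the set with more *Cga* was higher in *Nrp1* as well as in *Vegfd*.

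*Nrp2* (ENSMUSG00000025969, chromosome 1 from 62703285 to 62818695, plus strand) ran the other way between stem and differentiating cells. Its levels were 80.8 CPM (72.8 to 89.5) and 81.2 CPM (70.4 to 93.3) in mesenchymal cells and 52.7 CPM (50.1 to 55.4) and 47.2 CPM (44.3 to 50.2) in stem cells. Differentiating cells had 12.3 and 8.14 CPM, Pou1f1-lineage cells 16.9 and 12.4 CPM, gonadotrophs 9.56 and 11.3 CPM, and melanotrophs 7.89 and 14.0 CPM. From stem to differentiating cells *Nrp2* was 4.28-fold (3.51 to 5.25) and 5.80-fold (4.31 to 7.92) lower, while *Nrp1* was 4.53-fold (3.33 to 6.17) and 3.54-fold (2.42 to 5.20) higher. *Nrp1* overlaps *Mir1903* on its own strand, *Nrp2* overlaps *Gm29083* on the opposite and *Gm37121* on its own strand, and *Angpt1* overlaps *Gm17473* on the opposite strand, so that reads of these pairs may have been shared.

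*Angpt1* (ENSMUSG00000022309, chromosome 15 from 42424723 to 42676977, minus strand) was split cleanly between classes. Pou1f1-lineage cells had 66.5 CPM (62.0 to 71.2) in male and 65.4 CPM (57.7 to 73.9) in female cells, mesenchymal cells 57.2 CPM (50.4 to 64.5) and 46.9 CPM (38.7 to 56.2), and stem cells 49.3 CPM (46.8 to 51.9) and 43.3 CPM (40.6 to 46.2). Differentiating cells had 5.94 and 6.25 CPM, gonadotrophs 6.60 CPM and 2.83 CPM (1 UMI), and melanotrophs 5.002 and 2.89 CPM. The first 3 classes thus lay far above the other 3 in both libraries. Neither library separates mesenchymal from stem cells.

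Pou1f1-lineage cells were not alike in *Angpt1*, by a split on hormone UMIs chosen after the values were seen. Those with low hormone had 71.6 CPM (66.4 to 77.2, 658 cells) in male and 76.4 CPM (67.1 to 86.8, 238 cells) in female cells. Those with at least 50 UMIs of *Gh*, growth hormone, and under 20 of *Prl* had 33.6 CPM (25.0 to 44.2, 64 cells) and 9.85 CPM (3.20 to 23.0, 30 cells). Those with at least 20 UMIs of *Prl*, prolactin, had 85.4 CPM (67.3 to 107) in 53 male cells and 123 CPM (56.4 to 234) in 5 female cells. The *Gh* cells were below the low-hormone and *Prl* cells in both libraries. The 11 male and 9 female cells with at least 5 *Tshb* UMIs were not compared. A low level is thus not shown to be particular to *Gh* cells. *Nrp1* also differed, at 5.27 and 3.94 CPM (8 and 2 UMIs) in the *Gh* cells and 25.8 and 151 CPM (23 and 11 UMIs) in the *Prl* cells.

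**Figure D5:**
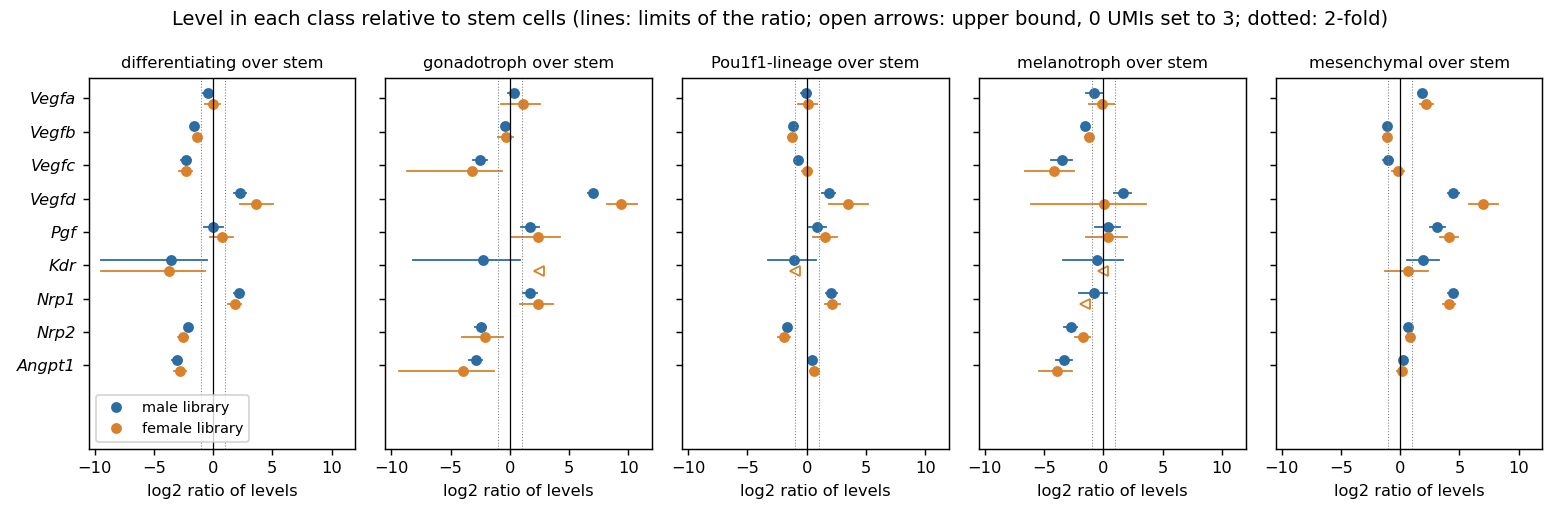
Level of 9 members in each class relative to stem cells (x axis, log2 ratio), in the male (blue) and female (orange) library. Points are ratios, lines their limits, open arrows upper bounds with 0 UMIs set to 3, and dotted lines mark 2-fold. *Flt1* has too few UMIs to be drawn. *Vegfd* in gonadotrophs lies farthest to the right, and *Vegfc*, *Nrp2* and *Angpt1* lie to the left in differentiating cells, gonadotrophs and melanotrophs of both libraries.

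Against stem cells, members were counted past 2-fold among the 9 that had at least 10 UMIs over both classes in each library, with *Flt1* the one that did not. In differentiating cells 2 were higher (*Vegfd* and *Nrp1*), where the background over all genes was 5.67%, and 5 were lower (*Vegfb*, *Vegfc*, *Kdr*, *Nrp2* and *Angpt1*), where it was 12.7%. The *Kdr* call rests on 1 UMI in differentiating cells of each library, with ratios to stem cells of 0.0832 (0.00143 to 0.716) and 0.0779 (0.00140 to 0.630), and was lost with doubled marker minimums and with cells thinned to 5000 UMIs, which left 4 lower. The median log2 ratio of the 9 was -1.60 in male and -1.33 in female cells, against -0.02 and -0.05 over all 14832 genes tested.

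Gonadotrophs had 3 members higher (*Vegfd*, *Pgf* and *Nrp1*; background 6.46%) and 3 lower (*Vegfc*, *Nrp2* and *Angpt1*; background 5.77%). *Vegfd* was 127-fold (98.1 to 167) and 659-fold (294 to 1660) the stem level in the male and female library, with 83 and 10 *Vegfd* UMIs in the stem cells, whose ratio to *Cga* is given above. Without the cells of highest doublet score the male log2 ratio was 8.26, against 6.99 with them. *Pgf* was 3.21-fold (1.90 to 5.36) and 5.24-fold (1.07 to 18.3) higher, and *Angpt1* 7.46-fold lower (5.16 to 11.1) in the male library and at 1 UMI in the female library, a ratio of 0.0652 (0.00155 to 0.388). The *Pgf* call was lost with thinning to 5000 UMIs and without *Sox9*-positive cells, which left 2 higher, and the *Vegfc* call with doubled marker minimums, which left 2 lower. With thinning, which keeps 24 female gonadotrophs, none of the 3 lower calls was left. The thinned log2 ratios of *Vegfc*, *Nrp2* and *Angpt1* were -3.15, -2.96 and -2.89 in male and -1.72, -1.56 and -2.22 in female cells. The median log2 ratios of the 9 members were -0.39 and 1.08, against 0.03 and 0.27 over all 14387 genes tested. With genes at 0 gonadotroph UMIs, such as *Kdr* in the female library, placed lowest in place of at their bound, the female medians were -0.34 and -0.16.

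Pou1f1-lineage cells had 2 members higher (*Vegfd* and *Nrp1*; background 8.36%) and 2 lower (*Vegfb* and *Nrp2*; background 8.39%), with medians of -0.03 and 0.08 against 0.05 and 0.03 over 14839 genes. Melanotrophs had 0 members higher (background 7.62%) and 4 lower (*Vegfb*, *Vegfc*, *Nrp2* and *Angpt1*; background 14.0%), with medians of -0.81 and -1.22 against -0.39 and -0.12 over 14598 genes (female -1.75 and -0.20 with genes at 0 UMIs, *Kdr* and *Nrp1* among the members, placed lowest). At the looser class rules *Vegfb* was just under 2-fold lower in male Pou1f1-lineage cells (log2 ratio -0.99). Mesenchymal cells had 4 members higher (*Vegfa*, *Vegfd*, *Pgf* and *Nrp1*; background 10.3%) and 1 lower (*Vegfb*; background 12.9%), with medians of 1.87 and 0.78 against -0.07 and -0.08 over 14620 genes. The *Vegfb* call was lost with thinning (log2 ratio -0.96 in the male library) and without *Sox9*-positive cells (-0.93 in the female library).

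Mesenchymal cells held some cells with other markers, and those were looked at apart, a split chosen after the values were seen. Of the mesenchymal cells 31 male and 26 female had UMIs of at least 3 of 8 endothelial markers, and 29 and 5 of at least 3 of 7 mural markers, with some cells in both sets. In neither set were 467 of 520 male and 266 of 293 female cells. Most of the 5 female cells with mural markers thus also had endothelial markers, and the 2 sets are not distinct cells. Summed, the endothelial list was at 310 and 337 CPM in mesenchymal cells against 11.0 and 9.32 CPM in stem cells, and the mural list at 346 and 145 CPM against 24.2 and 28.3 CPM. Among the endothelial list, *Emcn* was at 208 and 219 CPM and *Cdh5* at 28.5 and 43.6 CPM in mesenchymal cells, but *Pecam1* and *Cldn5* had 2 UMIs each in each library and *Plvap* 5 and 2. The cells with mural markers had *Nrp1* at 246 CPM (191 to 312) and 333 CPM (190.4 to 541), those with endothelial markers at 135 and 130 CPM, and cells with neither at 77.8 CPM (69.3 to 87.0) and 65.8 CPM (55.4 to 77.6). Without both sets, mesenchymal levels were 67.2 and 60.2 CPM for *Vegfd*, 40.7 and 32.7 CPM for *Vegfa* and 23.7 and 38.3 CPM for *Pgf*. All 3 ligands were thus found in mesenchymal cells without those markers. Such cells make up most of the class, so that their level lies near that of the whole class follows largely from their number.

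Between the sexes, *Vegfd* was the 1 member of 9 past 2-fold in stem cells, where the background over all genes was 2.04%. Its level was 0.459 CPM (10 UMIs) in the female against 2.82 CPM (83 UMIs) in the male library, 6.15-fold lower (2.66 to 15.9), and *Cga* was likewise lower there, at 25.2 against 94.6 CPM. The female level was also below the male one in melanotrophs (0.482 against 8.66 CPM), differentiating cells (5.66 against 13.4 CPM) and Pou1f1-lineage cells (5.07 against 10.1 CPM). In gonadotrophs and mesenchymal cells, the classes with most *Vegfd*, female over male ratios were 0.843 (0.662 to 1.06) and 0.916 (0.687 to 1.22). The difference was thus found in the classes where *Vegfd* was low. *Vegfa* was 1.57-fold lower (1.19 to 2.08) in female stem cells. *Kdr* was 1.78-fold higher there (0.830 to 3.86), within counting error, and the ratios of the other 6 tested members lay between 0.812 and 1.08. With 1 library per sex, sex and library cannot be told apart.

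Few single cells held a ligand and a signalling receptor. At 5000 UMIs, 54.9% of male and 45.9% of female stem cells had a UMI of at least 1 of the 5 ligands, but 8 of 1775 and 13 of 1844 had one of *Kdr* or *Flt1*, and 4 and 3 had both. *Vegfb* and *Nrp2* were found together in 9.41% of male and 6.62% of female stem cells, against 8.91% and 6.67% if the 2 were independent. *Nrp1* and *Nrp2* were found together in 10.2% and 5.68% of mesenchymal cells, against 9.22% and 7.75%.

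Over the 12 points of 6 classes in 2 libraries, members fell into patterns on log2(CPM + 5). *Vegfc* and *Angpt1* were the most alike (Pearson r = 0.946), followed by *Vegfa* and *Pgf* (0.925) and *Pgf* and *Nrp1* (0.855), while *Vegfd* and *Nrp2* were at -0.03. These points share 2 libraries and their depth, and the values are a description only. Of 7981 genes with at least 20 CPM in a class of both libraries, a level that *Kdr* and *Flt1* did not reach, those most like *Vegfd* were *Smarcc2* (0.964), *Gamt* (0.953) and *Creg1* (0.934). Those most like *Vegfc* were *Vangl1* (0.958), *Magi1* (0.951) and *Mitd1* (0.940), and *Vangl1* (0.944) was also among the 3 most like *Angpt1*, with *Loxl1* (0.946) and *Hspb1* (0.939). *Vegfa* was most like *Ncoa3* (0.993), *Prkg1* (0.971) and *Bhlhe22* (0.970), *Pgf* most like *Tgfbr3* (0.959), *Abhd5* (0.956) and *Serping1* (0.954). *Vegfb* was most like *Fam184a* (0.955), *Gpi1* (0.927) and *Ccdc34* (0.907), *Nrp1* most like *Lrrc17* (0.955), *Chmp1a* (0.954) and *Fam212a* (0.953), and *Nrp2* most like *Tril* (0.981), *Cox6b2* (0.976) and *Gpx8* (0.972).

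Other genes of the pathway were read from a list of 45, of which 40 or 41 had enough UMIs in each comparison with stem cells. Among the angiopoietins, *Angpt2*, which opposes ANGPT1 at TEK, was past 2-fold higher in the 4 other epithelial classes. It was at 1.87 and 1.93 CPM in stem cells, 46.8 and 45.6 CPM in differentiating cells, 40.1 and 45.2 CPM in gonadotrophs, 13.9 and 36.2 CPM in melanotrophs, and 8.05 and 8.62 CPM in Pou1f1-lineage cells. In differentiating cells, gonadotrophs and melanotrophs, *Angpt1* was lower and *Angpt2* higher than in stem cells in both libraries, whereas in Pou1f1-lineage cells *Angpt2* was higher with *Angpt1* at 1.35- and 1.51-fold the stem level. The receptors *Tek* and *Tie1* had at most 1 UMI in stem cells of either library, and in mesenchymal cells *Tek* was at 5.47 and 3.23 CPM and *Tie1*, past 2-fold higher, at 2.41 and 4.85 CPM.

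Of the class 3 semaphorins, *Sema3a*, *Sema3c* and *Sema3d* were past 2-fold higher in mesenchymal cells, where *Sema3f* was lower. *Sema3d* and *Sema3e* were higher in differentiating cells, *Sema3d* in gonadotrophs and Pou1f1-lineage cells, and *Sema3a* and *Sema3e* in melanotrophs. *Sema3d* was at 45.8 and 58.2 CPM in mesenchymal cells, 22.8 and 19.8 CPM in gonadotrophs and 1.02 and 0.689 CPM in stem cells. Of the plexins, which carry the semaphorin signal, *Plxna4* was higher in differentiating cells, gonadotrophs and melanotrophs, *Plxna2* and *Plxnd1* were higher in mesenchymal cells, and *Plxna1* and *Plxna2* lower in melanotrophs. *Flt4*, the receptor of VEGFC and VEGFD, had 5 male and 2 female UMIs in stem cells, 1 and 1 in Pou1f1-lineage cells and 0 in the other classes, too few for an order.

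Of the 6 genes of the PDGF system, *Pdgfra* and *Pdgfrb*, the receptors, and *Pdgfc* were higher in mesenchymal cells, and the ligand *Pdgfa* was lower there, at 16.4 and 6.47 CPM against 108 and 104 CPM in stem cells. *Pdgfa* was lower in melanotrophs and Pou1f1-lineage cells too, and *Pdgfd* in differentiating and Pou1f1-lineage cells. Inhibitors of angiogenesis were higher in mesenchymal cells in 5 of 8 cases (*Thbs2*, *Timp3*, *Col18a1*, *Serpinf1* and *Adamts1*) and lower in differentiating cells in 4 (*Thbs1*, *Timp3*, *Serpinf1* and *Adamts1*), in gonadotrophs in 3 and in melanotrophs in 6. In Pou1f1-lineage cells *Serpinf1* was higher and 3 were lower. Of 6 oxygen response factors, *Epas1* was lower in the 4 other epithelial classes and *Egln3* was higher in mesenchymal cells and lower in Pou1f1-lineage cells. Among 8 oxygen response targets, *Bnip3* was higher in the 3 endocrine classes, *Ankrd37* was higher in melanotrophs and lower in mesenchymal cells, *Adm* was higher and *Slc2a1* lower in mesenchymal cells, and *Ldha* was lower in differentiating cells. In all, 16 of 41 tested genes of the list were higher and 4 lower in mesenchymal cells, against 10.3% and 12.9% over all genes. Differentiating cells had 4 and 7 of 40 (5.67% and 12.7% over all genes), and gonadotrophs 4 and 4 of 40 (6.46% and 5.77%). Pou1f1-lineage cells had 4 and 7 of 40 (8.36% and 8.39%), and melanotrophs 6 and 10 of 40 (7.62% and 14.0%). The same shares over all genes stand beside the counts of the single lists above.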

How the data were processed

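The authors used Cell Ranger 3.0.2 on mm10 with an added eGFP sequence, and deposited the count of UMIs per gene and barcode as whole numbers without normalization. The labels name both v2 and v3 chemistry. Barcodes with under 50 genes, or whose mitochondrial share passed the library mean by over 3 SD (20.4% male, 26.1% female), were left out, 159 male and 85 female. Doublets were kept, and leaving out the 867 male and 261 female cells of highest Scrublet score (scanpy 1.11.5) was an alternative. Marker rules, sums, exact Poisson intervals and Clopper-Pearson limits were computed in Python 3.11.15 with scipy 1.17.1. Where no UMI was found, 3 UMIs set the upper limit. Thinning to 5000 UMIs used seed 1. Calls were tested on simulated counts. Genes were placed by GENCODE vM21 on mm10, and promoters taken from RefSeq. The named genes are all 10 members, the list of 45, and for each member the 3 genes of highest r. The members, lists and class rules were chosen with earlier results of these data known. Every call covers counting error only, and no test between libraries was made.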

Additional observations from a re-analysis of the deposited data

How the results depend on the processing

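Of 132 recomputed counts of members past 2-fold, 127 stayed within 1.5 times the main count. Under looser class rules 1 member was lower in Pou1f1-lineage cells instead of 2, since *Vegfb* came to a log2 ratio of -0.99 in the male library. With *Sox9*-positive endocrine and mesenchymal cells left out, and with cells thinned to 5000 UMIs, 0 members were lower in mesenchymal cells instead of 1, with *Vegfb* at -0.93 in the female and -0.96 in the male library respectively. Thinning also left 0 members lower in gonadotrophs instead of 3, with 24 female cells and fewer UMIs. Single calls were lost for *Pgf* in gonadotrophs (thinned, or without *Sox9*-positive cells) and, with doubled marker minimums, for *Vegfc* there and *Kdr* in differentiating cells, the latter also with thinning. Other calls were gained. *Nrp1* became lower in melanotrophs without the highest doublet scores and without a *Sox9* rule for stem cells. *Pgf* became higher in Pou1f1-lineage cells without the highest doublet scores and at 1.5-fold, and *Nrp2* higher in mesenchymal cells at 1.5-fold. At 1.5-fold, 2 members instead of 1 differed between female and male stem cells. Of 846 recomputed log2 ratios to stem cells, 57 moved outside the limits of the main value and none that was called changed sign. The ratio for *Vegfd* in gonadotrophs ran from 6.45 to 8.26 in the male and from 8.28 to 10.4 in the female library. A pair of alternatives was added after the data were seen, leaving out cells with endothelial or mural markers and barcodes found in both libraries. Neither moved a count past 1.5 times or a ratio outside its limits. The first made *Nrp1* lower in melanotrophs, with 5 members lower there instead of 4. No paired analysis was possible because each sex has 1 library and no result comes from a test. The 25 female gonadotrophs limit every value given for them.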
